A study of Mus musculus with 20 samples.

Results

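The miR-34 family and miR-449a were followed across the conversion of mouse embryonic stem cells into epiblast stem cells. The members were every arm of miR-34a, miR-34b and miR-34c and the 5p arm of miR-449a listed in the microRNA (miRNA) tables of both cell lines, chosen by name, which gave 7 of 1063 shared miRNAs: mmu-miR-34a-5p, mmu-miR-34a-3p, mmu-miR-34b-5p, mmu-miR-34b-3p, mmu-miR-34c-5p, mmu-miR-34c-3p and mmu-miR-449a-5p. All 7 passed the filter on low counts. Small RNAs were sequenced from 2 mouse lines, PGK (female) and E14 (male), in 20 libraries. Day 0 cells grew in 2i medium, in which embryonic stem cells are held in the naive state by inhibitors of Mek and Gsk3. They were then plated on fibronectin in N2B27 with Activin A and Fgf2, which favours the primed state of the post-implantation epiblast, and sampled at day 4, day 10, days 19 to 23 (here the middle stage) and days 27 to 30 (here the late stage).

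Each of the 10 groups of line and stage held 2 libraries, named replicates 2 and 3 after the differentiation experiments diff2 and diff3, so p-values measure the spread between these experiments. In 3 groups replicates 2 and 3 also differ in day: 23 and 21 at the PGK middle stage, 21 and 19 at the E14 middle stage, and 27 and 30 at the E14 late stage. Experiment and day cannot be told apart there. With a single line per sex, effects of sex and of line cannot be told apart. All later stages of a line were compared with the same pair of day 0 libraries. In both lines the day 0 library of experiment diff3 carries the cell-type label ESCs-EpiSCs although its title and day label give day 0 in 2i. Libraries held 7112398 to 18031067 miRNA counts. Levels are given in CPM, counts per 1e+06 counts of the library after TMM scaling, and a count of 0 allowed up to 0.213 to 0.347 CPM on that scale, depending on the library, a limit that covers counting error only. The miR-302 cluster, which marks the primed state, took 0.942% to 5.77% of counts in later libraries, against 0.0141% to 0.0520% at day 0. The miR-290 cluster, abundant in naive cells, took 5.71% to 17.8% in later libraries, against 19.9% to 28.96% at day 0. In bulk RNA, fewer cells that express a miRNA and less of it per cell cannot be told apart.

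A miRNA is cut from a hairpin precursor that can release a strand from either side, the 5p arm and the 3p arm, and the loaded strand pairs with messenger RNAs mainly through its seed, bases 2 to 8. The miR-34 family is known as a set of transcriptional targets of p53 that restrain the cell cycle, and miR-34a has been described as a brake on pluripotency genes and on reprogramming. The miR-449 miRNAs share the seed of miR-34, and in adult tissues both families are known from multiciliated and male germ cells. Mir34a is a gene of its own, whereas Mir34b and Mir34c are neighbours made from a shared transcript.

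The mature sequences below, from RefSeq (GRCm38.p6), show the shared seed, in capitals, with which the 5p arms of both families can reach the same targets, and the close likeness of the 3p arms of the cluster. They were found for 6 of the 7 members. miR-34c-5p has no mature entry in the RefSeq table, so its sequence is not printed and its seed could not be read there. The first 4 are the miRNAs with this seed among the 1679 mature entries of the RefSeq table.
mmu-miR-34a-5p: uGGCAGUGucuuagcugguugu
mmu-miR-34b-5p: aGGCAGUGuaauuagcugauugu
mmu-miR-449a-5p: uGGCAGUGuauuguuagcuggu
mmu-miR-449c-5p: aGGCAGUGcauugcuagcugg
mmu-miR-34a-3p: aAUCAGCAaguauacugcccu
mmu-miR-34b-3p: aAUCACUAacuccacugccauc
mmu-miR-34c-3p: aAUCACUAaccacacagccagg

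Counted base by base from the 5′ end, miR-449a-5p matched miR-34a-5p at 15 of 22 positions, the first 9 among them, and miR-34b-5p matched miR-34a-5p at 11 of 22. The 3p arms of miR-34b and miR-34c matched each other at 17 of 22 positions, the first 10 in an unbroken run, and share the seed AUCACUA, which differs from that of miR-34a-3p. The sources used here do not give how reads that fit more than 1 of these arms were assigned. The hairpins of miR-34a and miR-34b are printed with both arms in capitals, because the balance between arms is measured below for each of them.
Mir34a: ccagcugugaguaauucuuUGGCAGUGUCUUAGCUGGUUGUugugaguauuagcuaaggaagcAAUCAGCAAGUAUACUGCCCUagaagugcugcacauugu
Mir34b: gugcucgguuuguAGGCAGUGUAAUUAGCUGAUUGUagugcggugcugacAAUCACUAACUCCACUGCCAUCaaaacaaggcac

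The members come from 3 places in the mouse genome (GRCm38, GENCODE M21). Mir34a lies on chromosome 4 (150068454 to 150068555, plus strand) and overlaps an exon of Gm37795, a gene model of the class to be experimentally checked, on the same strand. Mir34b (51103562 to 51103645) and Mir34c (51103034 to 51103110) lie on the minus strand of chromosome 9 with 451 bases between them, inside an intron of Btg4, a gene transcribed from the opposite strand. Mir449a (113037534 to 113037624) lies on the plus strand of chromosome 13 in an intron of Cdc20b, transcribed in the same direction, together with Mir449b and Mir449c.

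The 5 arms of miR-34b, miR-34c and miR-449a rose at every later stage in both lines, and neither arm of miR-34a rose at any. Changes were tested by edgeR's quasi-likelihood test over the 813 miRNAs that passed the filter, with Benjamini-Hochberg adjustment, and called at an adjusted p below 0.05. In PGK cells 5 of 7 members were higher and 0 lower at each stage, while of all tested miRNAs 24.5%, 21.3%, 21.2% and 24.1% were higher and 14.6%, 18.8%, 19.3% and 19.4% lower at day 4, day 10, the middle and the late stage. DESeq2 called 0 members lower in PGK cells at day 4, day 10 and the late stage, and miR-34a-3p lower at the middle stage. At an unadjusted p below 0.05, too, no member was lower in PGK cells other than miR-34a-3p at the middle stage. In E14 cells 5 of 7 were higher at each stage, against 25.1%, 16.7%, 15.9% and 19.6% of all tested miRNAs. Both arms of miR-34a were lower in E14 cells at the middle and late stages. At days 4 and 10 of E14 cells edgeR called 0 members lower, with 0 at an unadjusted p below 0.05 and miR-34a-5p at day 4 by DESeq2. Of all tested miRNAs, 18.3%, 17%, 18.5% and 21.2% were lower in E14 cells at day 4, day 10, the middle and the late stage. The members were chosen with earlier results of these data known. The arms of miR-34b and miR-34c come from a shared transcript, so the members are not independent units.

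The median log2 change of the 7 members lay between 2.66 and 3.59 in PGK cells and between 3.06 and 4.36 in E14 cells, and the median of all 813 tested miRNAs between -0.04 and 0.09 over both lines. For all 5 rising arms the 8 later libraries of a line lay above its 2 day 0 libraries without overlap. How many of all 813 tested miRNAs lay apart in this way was not counted, so this does not set the members apart. Rises of the 5 arms against day 0 were also found under every scaling tried (TMM, RLE and plain library totals), in both lines and at each stage. RLE moved the median of all tested miRNAs to between -0.12 and 0.12 and library totals to between -0.20 and 0.71.

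**Figure D1:**
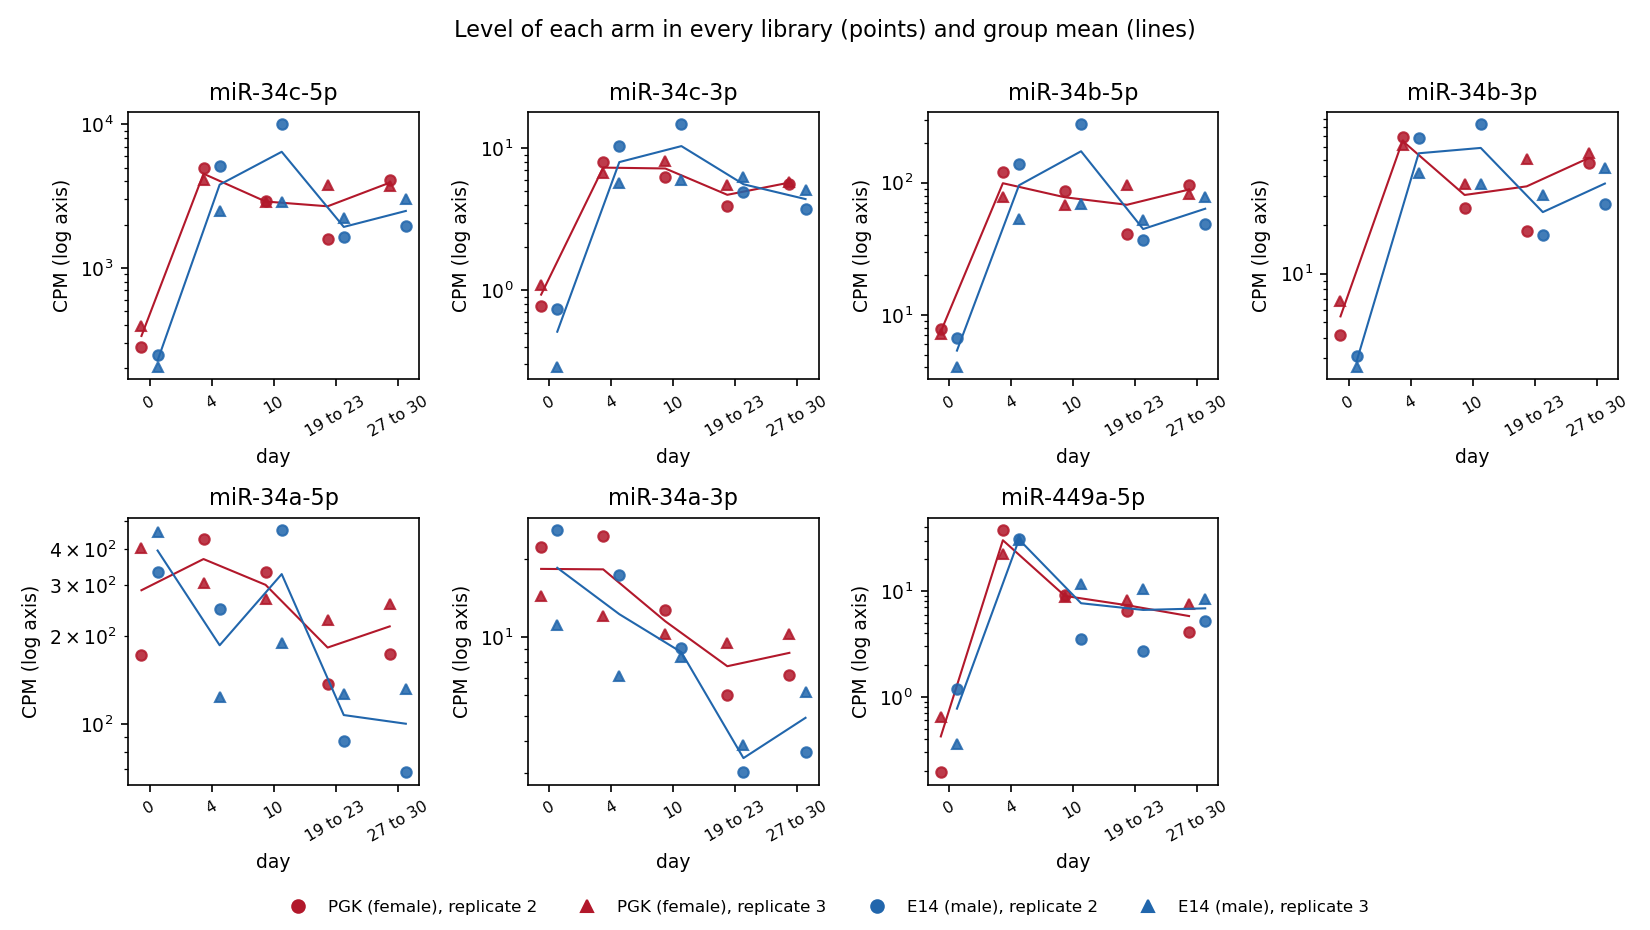
Level of each arm (CPM, TMM-scaled, log axis, range set per panel) by day for PGK and E14 libraries, with circles for replicate 2, triangles for replicate 3 and lines through the group means. The arms of miR-34b and miR-34c step up by day 4 and stay up, miR-449a-5p peaks at day 4, and miR-34a-5p starts between 173 and 456 CPM and does not step up.

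miR-34c-5p was the most abundant member at every later stage and is the arm of the chromosome 9 cluster that made most of the signal. In PGK cells it stood at 280 and 390 CPM at day 0, 4934 and 4128 CPM at day 4, 2935 and 2867 CPM at day 10, 1583 and 3790 CPM at the middle stage and 4103 and 3745 CPM at the late stage (replicates 2 and 3 in turn). In E14 cells the same series was 248 and 204 CPM, 5104 and 2499 CPM, 10030.0 and 2859 CPM, 1636 and 2222 CPM, and 1944 and 3042 CPM. Every later library thus exceeded every day 0 library of both lines, by a margin of several fold. By mean level it took place 48 of 1063 miRNAs in PGK cells at day 4, against place 178 at day 0, and place 55 in E14 cells at day 4, against place 189 at day 0.

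The log2 change of miR-34c-5p against day 0 was 3.76 ± 0.58 (SE), 3.11 ± 0.57, 3.003 ± 0.57 and 3.55 ± 0.58 in PGK cells from day 4 to the late stage, with adjusted p-values of at most 0.000633. In E14 cells it was 4.07 ± 0.59, 4.83 ± 0.62, 3.09 ± 0.57 and 3.46 ± 0.58, with adjusted p-values of at most 0.000833. The high value at E14 day 10 came from replicate 2, a library in which miR-22-3p also took 6.16% of counts, against 3.22% in replicate 3. Without that library the change at E14 day 10 was 3.70, a 12.95-fold rise in place of 28.5-fold. Leaving out replicate 2 at E14 day 4 gave 3.27 and leaving out replicate 3 at the PGK middle stage gave 2.24, and all 3 remained called.

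Ordered by mean, the 8 later groups of miR-34c-5p ran from 6443 CPM at E14 day 10 to 1929 CPM at the E14 middle stage, and neighbours in that order overlapped in their libraries except PGK day 4 (4531 CPM) and PGK late (3924 CPM). Below them came PGK day 0 (335 CPM) and E14 day 0 (226 CPM), whose libraries did not overlap with each other either. The level reached at day 4 was therefore not followed by a further ordered rise. Late PGK cells had 3924 ± 253 CPM, against 4531 ± 569 CPM at day 4 (SD, n = 2 each), a log2 change of -0.21 ± 0.53 with an adjusted p of 0.832. Late E14 cells had 2493 ± 776 CPM, against 3802 ± 1842 CPM at day 4, a log2 change of -0.61 ± 0.53 with an adjusted p of 0.454. With plain library totals both of these turned positive, to 0.51 in PGK and 0.15 in E14 cells, while the median of all tested miRNAs moved to 0.51 and 0.38, against -0.20 and -0.29 with TMM, so relative to that median miR-34c-5p was not higher in either line by either scaling.

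miR-34b-5p, the 5p arm of the neighbouring hairpin, followed the same course at a far lower level. The 8 later PGK libraries ranged from 40.6 to 120.3 CPM with a median of 84.5, against 7.74 and 7.18 CPM at day 0. In E14 cells the 8 later libraries ranged from 37.1 to 277 CPM with a median of 60.9, against 6.67 and 4.04 CPM at day 0. Its log2 changes against day 0 were 3.73 ± 0.68, 3.38 ± 0.67, 3.19 ± 0.67 and 3.57 ± 0.68 in PGK cells and 4.16 ± 0.70, 5.02 ± 0.72, 3.06 ± 0.66 and 3.57 ± 0.68 in E14 cells. The largest adjusted p of miR-34b-5p was 0.00262, at the E14 middle stage. Its PGK middle value was 2.45 without replicate 3, its E14 day 10 value 3.73 without replicate 2, and its E14 day 4 value 3.12 without replicate 2 and 3.56 without the day 0 replicate 3, all still called.

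The 3p arms of the cluster, which lie opposite the 5p arms in the stem of each hairpin, also rose. miR-34b-3p ranged from 18.3 to 69.7 CPM in the later PGK libraries, against 4.16 and 6.74 CPM at day 0, and from 17.2 to 83.2 CPM in the later E14 libraries, against 3.11 and 2.67 CPM at day 0. Its log2 changes lay between 2.48 and 3.59 in PGK and between 3.05 and 4.36 in E14 cells, with adjusted p-values of at most 0.00266. It was thus a well-counted arm, with group sums of 571 to 1487 counts at the later stages. Without PGK middle replicate 3 its change there was 1.75, without E14 middle replicate 3 it was 2.39, without E14 day 4 replicate 2 it was 3.64 and without E14 day 10 replicate 2 it was 3.66, each still called.

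miR-34c-3p was the scarcest arm of the cluster. It had 36 to 208 counts in the later libraries of both lines, against 8 and 10 counts in the PGK and 8 and 4 in the E14 day 0 libraries. In CPM this was 3.91 to 8.15 in later PGK libraries, against 0.774 and 1.09 at day 0, and 3.71 to 14.8 in later E14 libraries, against 0.731 and 0.288 at day 0. The groups did not overlap in either line. Its log2 changes lay between 2.33 and 2.96 in PGK and between 3.11 and 4.36 in E14 cells, with adjusted p-values of at most 0.00403. Single libraries moved the E14 values of miR-34c-3p. Without day 0 replicate 2 they were 5.01, 4.23 and 3.85 at day 10, the middle and the late stage, and without day 0 replicate 3 they were 3.16, 3.76, 2.81 and 2.46 from day 4 on. Without day 4 replicate 2 the day 4 value was 3.29, and without day 10 replicate 2 the day 10 value was 3.59. All of these remained called.

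miR-449a-5p stood out by its timing. It had 0.193 and 0.653 CPM in PGK cells at day 0, 37.9 and 22.6 CPM at day 4, 9.24 and 8.76 CPM at day 10, 6.41 and 8.28 CPM at the middle stage and 4.14 and 7.47 CPM at the late stage (replicates 2 and 3 in turn). The E14 series was 1.19 and 0.360 CPM, 31.0 and 30.5 CPM, 3.56 and 11.8 CPM, 2.72 and 10.6 CPM, and 5.24 and 8.50 CPM. In each line both day 4 libraries lay above every other library, and both day 0 libraries below every other library. The mean levels at day 4 were 30.2 ± 10.9 CPM in PGK and 30.7 ± 0.37 CPM in E14 cells, and the libraries of both lines overlapped there.

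The log2 change of miR-449a-5p against day 0 was 6.15 ± 0.90, 4.40 ± 0.86, 4.11 ± 0.86 and 3.77 ± 0.85 in PGK cells from day 4 to the late stage (adjusted p at most 0.00231). In E14 cells it was 5.33 ± 0.83, 3.31 ± 0.79, 3.13 ± 0.78 and 3.17 ± 0.78 (adjusted p at most 0.00667). These folds rest on few day 0 counts, 2 and 6 in the PGK libraries and 13 and 5 in the E14 ones. Without PGK day 0 replicate 2 the PGK changes were 5.32, 3.81, 3.51 and 3.15, and without replicate 3 they were 6.79, 5.33, 5.06 and 4.72, all called. Without E14 day 0 replicate 2 the E14 changes were 6.05, 4.29, 4.18 and 4.18. Without E14 day 0 replicate 3 they were 4.42, 2.64, 2.39 and 2.41, and the day 10, middle and late calls were lost, with adjusted p-values of 0.0564, 0.0705 and 0.0624. The day 10 call was also lost without E14 day 10 replicate 3 (2.12, adjusted p = 0.079, against 4.00 without replicate 2), and the middle call without E14 middle replicate 3 (1.65, adjusted p = 0.167). At day 4 miR-449a-5p remained called in both lines with any single library left out.

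The decline of miR-449a-5p after day 4 was near the threshold in each line. Late PGK cells had 5.81 ± 2.35 CPM, against 30.2 ± 10.9 CPM at day 4, a log2 change of -2.37 ± 0.71 with an adjusted p of 0.0442, and it was the only member called, where 6.4% of all tested miRNAs were lower. Late E14 cells had 6.87 ± 2.31 CPM, against 30.7 ± 0.37 CPM at day 4, a log2 change of -2.16 ± 0.70 with an adjusted p of 0.0578, where 5.54% of all tested miRNAs were lower. edgeR therefore called 0 members in E14 cells, with 2 at an unadjusted p below 0.05 and 1 called by DESeq2. With the experiment as a replicate block the adjusted p of miR-449a-5p in E14 cells was 0.0326, and with a replicate block within each line 0.0381. The PGK call was lost when any of 13 single libraries was left out (each of the 10 PGK libraries, day 0 replicate 3 of E14 cells or either E14 day 4 library), the change then lying between -2.69 and -1.68. It was also lost with plain library totals (-1.58, adjusted p = 0.192) and with no filter on low counts (adjusted p = 0.0525).

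**Figure D2:**
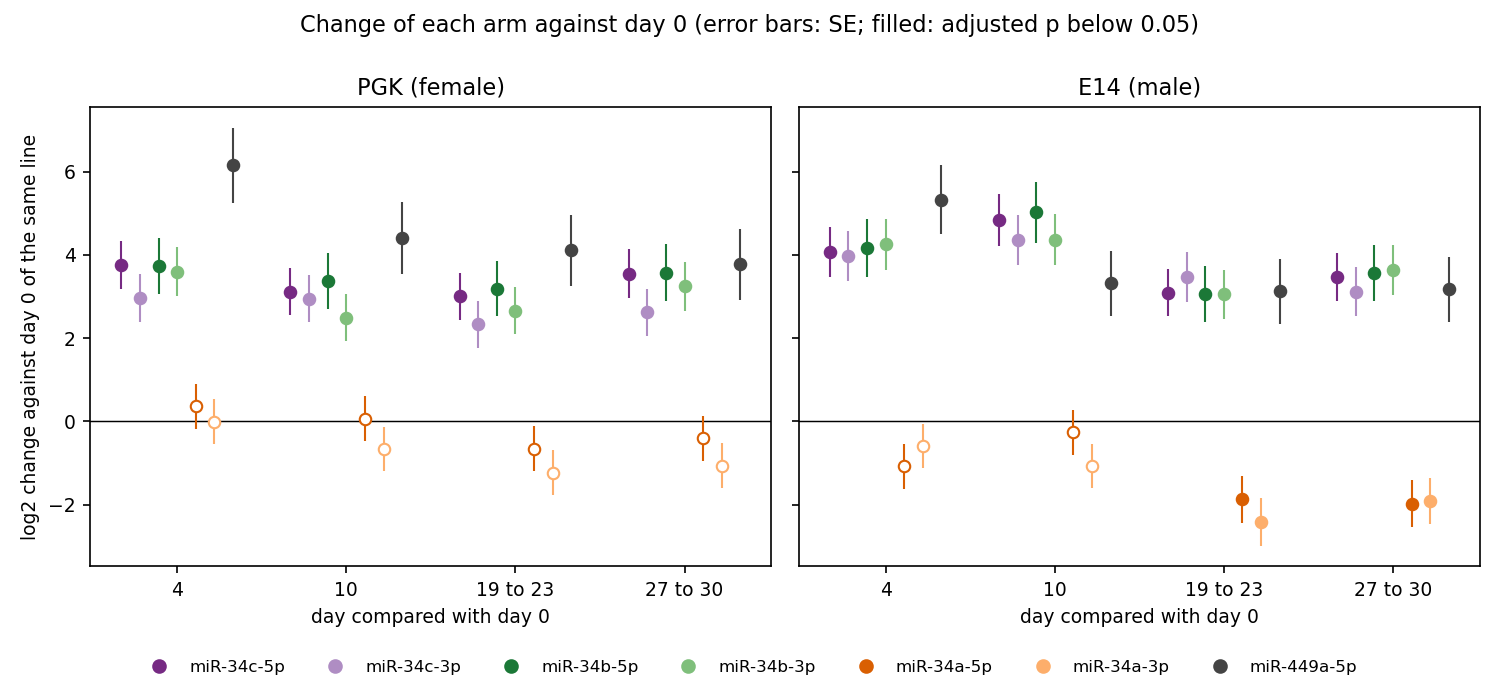
Log2 change of each arm against day 0 of the same line (edgeR, TMM), PGK on the left and E14 on the right, with SE bars and filled points for an adjusted p below 0.05. The arms of miR-34b, miR-34c and miR-449a lie above 2 at each stage in both lines, and the miR-34a arms lie at or below 0.36.

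The other miR-449 arms were sparse and were counted mainly at day 4. miR-449c-5p, which carries the same seed, had 15 and 35 counts in PGK libraries at day 4, against 0 and 3 at day 0, and 48 and 21 counts in E14 libraries at day 4, against 0 and 0 at day 0. Against 3 counts over the E14 day 0 group, the miR-449c-5p level at E14 day 4 was at least 29.2-fold higher. miR-449a-3p had 19 and 16 counts in PGK libraries at day 4, against 0 and 0 at day 0, at least 13.02-fold higher by the same limit. In E14 libraries miR-449a-3p had 28 and 13 counts at day 4, against 0 and 4 at day 0. edgeR called all 4 of these day 4 comparisons higher, where 24.5% (PGK) and 25.1% (E14) of all tested miRNAs were higher. Adjusted p-values in PGK and E14 cells in turn were 0.0299 and 0.00413 for miR-449c-5p and 0.00984 and 0.0318 for miR-449a-3p. Both arms passed the filter on low counts through their day 4 libraries, so these calls are not independent support for a peak at day 4. The call of miR-449c-5p in E14 cells held with any single library left out. That of miR-449a-3p in PGK cells was lost without either PGK day 0 library. That of miR-449c-5p in PGK cells was lost without PGK day 0 replicate 2 or 3, day 4 replicate 3, day 10 replicate 3 or late replicate 2 or 3, and with plain library totals (adjusted p = 0.0509). Both PGK calls were also lost without both diff3 day 0 libraries (adjusted p = 0.0505 for each). That of miR-449a-3p in E14 cells was lost without E14 day 0 replicate 2, either E14 day 4 library, PGK day 4 replicate 2 or either PGK library of day 10 or the late stage, by DESeq2 (adjusted p = 0.0772) and with E14 fitted alone (adjusted p = 0.0943). Outside day 4 the counts of miR-449a-3p stayed between 0 and 5 in every library. miR-449b had 4 counts and miR-449c-3p 1 count, each from a single library.

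miR-34a, the member best known as a p53 target, took a course apart from the rest. miR-34a-5p stood at 173 and 403 CPM in PGK cells at day 0, 432 and 306 CPM at day 4, 333 and 269 CPM at day 10, 138 and 229 CPM at the middle stage and 174 and 259 CPM at the late stage (replicates 2 and 3 in turn). In PGK cells the later and day 0 libraries overlapped, and the log2 changes were 0.36 ± 0.54, 0.06 ± 0.54, -0.66 ± 0.54 and -0.41 ± 0.54, with adjusted p-values of at least 0.357. In E14 cells the series was 333 and 456 CPM, 249 and 124 CPM, 465 and 190 CPM, 87.5 and 127 CPM, and 68.2 and 132 CPM. At the middle and late stages all E14 libraries thus lay below both day 0 libraries, and the log2 changes there were -1.88 ± 0.56 (adjusted p = 0.0173) and -1.98 ± 0.56 (adjusted p = 0.0121).

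These calls of miR-34a-5p in E14 cells depended on single libraries and on scaling. Without replicate 2 of the middle stage the change there was -1.76 (adjusted p = 0.0917), and without replicate 2 of the late stage the change there was -1.61 (adjusted p = 0.101). With plain library totals, which moved the median of all tested miRNAs to 0.68 and 0.705 at the E14 middle and late stages, the changes were -1.18 (adjusted p = 0.0719) and -1.33 (adjusted p = 0.0439). At E14 day 4 the value of miR-34a-5p was -1.08 ± 0.55 (adjusted p = 0.122), and DESeq2 gave an adjusted p of 0.0346. At E14 day 10 its change was -0.27 ± 0.54 (adjusted p = 0.724), with replicate 2, the library high in miR-34c-5p, also above replicate 3 for miR-34a-5p.

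miR-34a-3p, the less abundant arm, ran from 5.98 to 24.4 CPM in later PGK libraries, against 22.3 and 14.4 CPM at day 0, and from 3.03 to 17.4 CPM in later E14 libraries, against 25.9 and 11.1 CPM at day 0. Its log2 changes in PGK cells were -0.01 ± 0.53, -0.67 ± 0.54, -1.24 ± 0.54 and -1.07 ± 0.54, none called by edgeR. The middle value in PGK cells had an adjusted p of 0.0804, and DESeq2 gave 0.0381. In E14 cells they were -0.59 ± 0.53, -1.07 ± 0.54, -2.42 ± 0.57 and -1.91 ± 0.55, and the middle and late changes were called, with adjusted p-values of 0.00455 and 0.0142. Without E14 day 0 replicate 2 the middle and late values were -1.69 (adjusted p = 0.0506) and -1.21 (adjusted p = 0.139), and without day 0 replicate 3 they were -3.01 and -2.51. The late call was also lost without late replicate 2 (adjusted p = 0.105) and with plain library totals (adjusted p = 0.0635).

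No member differed between the lines by edgeR. For the PGK level over the E14 level, averaged over the 5 stages, 0 of 7 members were called, where 18.5% of all tested miRNAs were called in either direction. Of the members 1 had an unadjusted p below 0.05 (miR-34a-3p, log2 difference 0.59 ± 0.24, adjusted p = 0.105), and DESeq2 called 0. For miR-34a-5p that difference was 0.46 ± 0.24 (adjusted p = 0.225). The change of PGK cells against day 0 minus that of E14 cells was called by edgeR for 0 members at day 4 and 0 late, where 0% and 0.369% of all tested miRNAs were called, with 0 members at an unadjusted p below 0.05 and 0 by DESeq2 at both stages. For miR-34a-5p, lower late in E14 cells by the test and not in PGK cells, this difference between changes was 1.44 ± 0.77 at day 4 (adjusted p = 0.39) and 1.57 ± 0.77 late (adjusted p = 0.3765), so its course was not shown to differ between the lines.

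With miR-34c-5p rising and miR-34a-5p not, the make-up of the pool of 5p arms that share the miR-34 family name or seed changed. Added over miR-34a-5p, miR-34b-5p, miR-34c-5p, miR-449a-5p and miR-449c-5p, these arms made 0.0534% of all counts at day 0 in either line, 0.343% at day 4, 0.332% at day 10, 0.356% at the middle and 0.475% at the late stage in PGK cells, and 0.328%, 0.609%, 0.291% and 0.357% at these later stages in E14 cells. The mean share of miR-34a-5p in the pool was 5.15% to 9.13% at the later PGK stages, against 43.9% ± 9.0 at day 0, and 3.68% to 5.19% at the later E14 stages, against 62.6% ± 8.5 at day 0 (SD, n = 2). That of miR-34c-5p was 88.2% to 92.6% at the later PGK stages, against 54.7% at day 0, and 92.2% to 93.7% at the later E14 stages, against 36.4% at day 0. miR-449a-5p held at most 1.13% of the pool in any library, at E14 day 4.

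**Figure D3:**
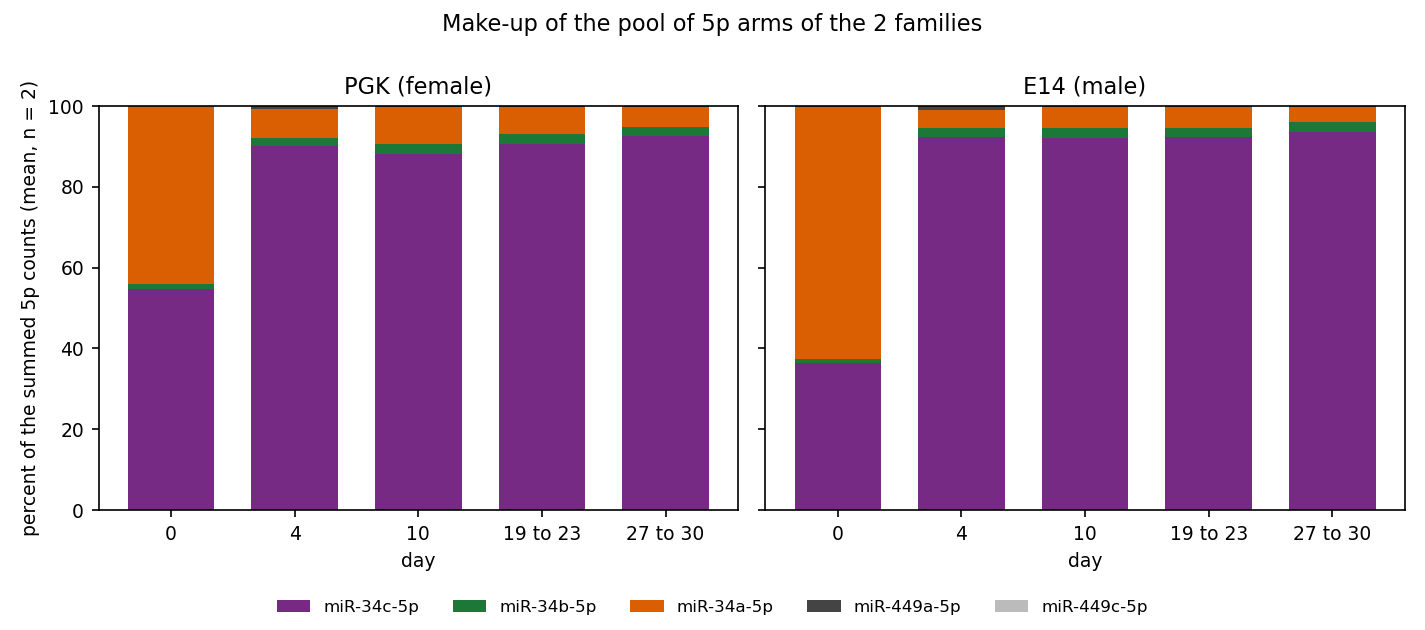
Share of each arm (percent, mean of 2 libraries) in the summed counts of the 5p arms of the miR-34 and miR-449 families by day, PGK on the left and E14 on the right. At all later stages miR-34c-5p holds over 88% and miR-34a-5p under 10%, against 43.9% (PGK) and 62.6% (E14) for miR-34a-5p at day 0.

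Ratios within a library need no scaling and gave the same picture. By count, miR-34c-5p stood at 8.82 to 23.6 times miR-34a-5p in later PGK libraries, against 1.62 and 0.968 times in the day 0 ones. In later E14 libraries the ratio was 15.0 to 28.5, against 0.743 and 0.448 at day 0. The mean log2 ratio was 4.03 ± 0.48 in 16 later libraries, against -0.24 ± 0.77 in 4 day 0 libraries (SD), a difference of 4.27. A two-sided exact permutation test with days permuted within lines gave p = 0.000494, the smallest its 2025 arrangements allow, and an adjusted p of 0.00247 over 5 ratios. This test and those of the other ratios treat the libraries of a line as separate units. All 5 stages of a line come from the same experiments, diff2 and diff3, so this p-value may overstate the evidence. The difference was 3.40 in PGK libraries alone and 5.14 in E14 libraries alone, with adjusted exact permutation p-values of 0.0556 and 0.111. Within a line the 45 arrangements allow no unadjusted p below 0.0222. Each adjusted p also depends on the other ratios, so these p-values do not rank the lines. Since the divergence of these arms was known from an earlier look at the same data, the test gives the size of the shift and is not independent support.

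The paired hairpins of chromosome 9 kept a steady ratio instead. miR-34c-5p was 33.8 to 54.4 times as abundant by count as miR-34b-5p over all 20 libraries, with a median of 41.3. Its mean log2 ratio to miR-34b-5p was 5.37 ± 0.16 in the later libraries, against 5.45 ± 0.30 at day 0 (SD), a difference of -0.08 (exact permutation, adjusted p = 0.482). While the level of either arm moved by about an order of magnitude, this ratio stayed within a range of less than a doubling. How reads that fit both miR-34b-5p and miR-34c-5p were assigned is not given, and their part in the steady ratio was not tested.

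The balance between arms differed among the hairpins. By count, the 5p arm of miR-34c was 333 to 728 times its 3p arm (median 487), that of miR-34a 7.79 to 51.1 times (median 24.2), and that of miR-34b 1.07 to 3.44 times (median 1.87). The order miR-34c, miR-34a, miR-34b in this balance held in every library, as the ranges do not overlap. Between later and day 0 libraries the mean log2 arm ratio differed by 0.37 for miR-34c, 0.37 for miR-34a and 0.28 for miR-34b (exact permutation, adjusted p = 0.285, 0.338 and 0.338). For miR-34a the day 0 replicates were far apart in both lines, at 7.79 and 28.1 in PGK and 12.9 and 41.1 in E14 cells, and the higher value came from the diff3 library with the differing cell-type label. Without both diff3 day 0 libraries, a setting added after seeing the data, the differences were 1.25 for miR-34a and 0.62 for miR-34c. That setting leaves a single day 0 library per line, so the spread at day 0 within a line is unknown.

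**Figure D4:**
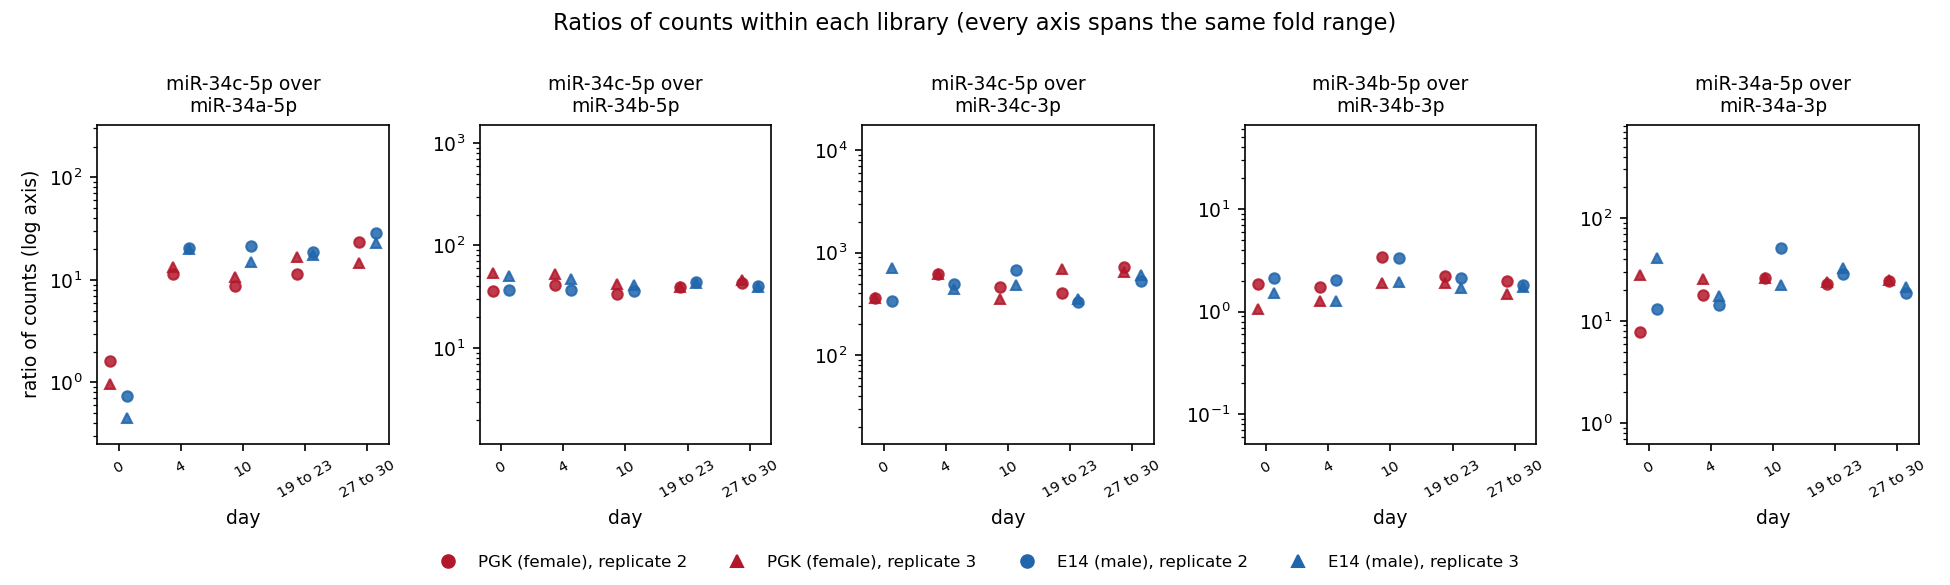
Ratio of counts within each library (log axis, the same fold range in every panel) by day for PGK and E14 libraries, with circles for replicate 2 and triangles for replicate 3. The ratio of miR-34c-5p to miR-34a-5p steps up between day 0 and day 4, and the ratio of miR-34c-5p to miR-34b-5p stays between 33.8 and 54.4.

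The day 0 libraries of experiment diff3 were also left out as a pair for the changes against day 0. This leaves a single day 0 library per line, so only log2 changes are given. miR-34a-3p then had values of -1.67 and -1.56 at the PGK middle and late stages. miR-449a-5p had values of 2.775, 2.59 and 2.595 at E14 day 10, the middle and the late stage. miR-34a-5p had a value of -1.54 at the E14 middle stage.

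Across the 20 libraries the log2 level of miR-34c-5p correlated at r = 0.994 with miR-34b-5p, 0.986 with miR-34b-3p, 0.974 with miR-34c-3p and 0.808 with miR-449a-5p, against -0.07 with miR-34a-5p. These are descriptions over libraries that share stages and scaling, and how reads that fit several arms were assigned is not given. Outside both families, the 3 of 419 miRNAs most like miR-34c-5p were miR-302d-5p (r = 0.927), miR-21a-5p (0.924) and miR-302c-3p (0.917). miR-302d-5p, an arm of the primed-state cluster, averaged 3.10, 756 and 337 CPM at day 0, day 4 and late in PGK cells, and miR-21a-5p, common in differentiated cells, averaged 2429, 13530.0 and 13840.0 CPM. The 3 most like miR-34a-5p were miR-378c (r = 0.738), miR-136-5p (0.73) and miR-3071-3p (0.73), and its own 3p arm had r = 0.754.

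The markers of other cell types moved unevenly beside these changes. The 13 listed miRNAs together took 1.01% to 4.13% of counts in later libraries, against 0.730% to 1.37% at day 0. Medians of later and day 0 libraries were 4767 and 10.9 CPM for miR-375-3p (endoderm) and 12630.0 and 2526 CPM for miR-21a-5p. The medians of the neural markers went opposite ways, with 523.5 and 186 CPM for miR-9-5p and 17.6 and 48.0 CPM for miR-124-3p in the same order. Of the mesenchymal ones, miR-143-3p had 928 and 5172 CPM, miR-145a-5p 13.1 and 35.5 CPM, and miR-199a-3p 112 and 82.7 CPM. let-7a-5p and let-7b-5p, high in differentiated cells, had 131 and 3516 CPM and 3.49 and 125 CPM. Of the muscle markers, miR-133a-3p had 18.5 and 1.505 CPM and was counted in all 20 libraries, miR-1a-3p had 0.446 and 0.313 CPM and was at 0 in 2 libraries, and miR-206-3p was at 0 in 17. The liver marker miR-122-5p was at 0 in 15 libraries. Later and day 0 libraries overlapped for miR-9-5p, miR-124-3p, miR-145a-5p, miR-199a-3p, let-7b-5p, miR-133a-3p and miR-1a-3p. The part of the 13 listed markers in the rise of the miR-34b/c cluster and miR-449a was not tested. For multiciliated cells the listed markers were the miR-449 arms themselves.

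Other miRNAs described as responsive to p53, mostly in human cells, were called lower more often than higher at each stage in both lines, with an exception at PGK day 4 when 1 library was left out. Of 12 listed, 11 were tested, several of them neighbours in a cluster. The list shares miR-143-3p and miR-145a-5p with the mesenchymal markers above. The part of p53 in the changes of this list or of the members was not tested. In PGK cells 1 was higher and 5 lower at day 4, 0 and 6 at day 10, 0 and 10 at the middle and 0 and 9 at the late stage, where of all tested miRNAs 14.6%, 18.8%, 19.3% and 19.4% were lower and 24.5%, 21.3%, 21.2% and 24.1% higher at these stages. In E14 cells 0 were higher and 8 lower at day 4, 1 and 9 at day 10, 0 and 8 at the middle and 0 and 8 at the late stage, where of all tested miRNAs 18.3%, 17%, 18.5% and 21.2% were lower and 25.1%, 16.7%, 15.9% and 19.6% higher. Under plain library totals the counts of lower ones were 6 at the PGK middle, 5 at the PGK late and 5 at the E14 late stage. Without PGK day 4 replicate 3, 1 was higher and 0 lower at PGK day 4. Without replicate 2 of the stage itself, 5 were lower at the PGK middle and 4 at the PGK late stage, and without E14 day 10 replicate 3, 5 were called at E14 day 10, of which 1 was higher.

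Of this list, miR-200c-3p, an epithelial miRNA, was the one higher at PGK day 4 (1.43 ± 0.36, adjusted p = 0.00653), a call lost without day 4 replicate 2 or day 0 replicate 2. miR-22-3p was the one higher at E14 day 10 (1.18 ± 0.42, adjusted p = 0.0406). That value was 0.21 without replicate 2, the library that also gave the high miR-34c-5p, and its call was held in 7 of 20 fits that left out a library. With a replicate block within line its adjusted p was 0.0507. The epithelial miR-141-3p fell by 4.23 in late PGK cells and by 7.31 in late E14 cells on the log2 scale. The PGK change was -3.56 without day 0 replicate 3 and -4.86 without late replicate 2, and the E14 change was -6.67 with plain library totals, all still called. miR-192-5p had 489 and 404 CPM in late E14 libraries, against 3338 and 1532 CPM at day 0, a log2 change of -2.45 ± 0.51 (adjusted p = 0.00177), or -1.82 without day 0 replicate 2. In late PGK libraries it had 457 and 592 CPM, against 1975 and 1029 CPM at day 0, a change of -1.52 ± 0.49 (adjusted p = 0.0207). That PGK call was lost without day 0 replicate 2 (-0.96), without late replicate 2 and with plain library totals (adjusted p = 0.0513).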

How the data were processed

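Small RNAs of PGK (female) and E14 (male) cells at 5 stages were counted per miRNA in 20 libraries. Per the labels' protocols, RNA was extracted with Trizol and treated with DNase before Illumina library preparation. Per the submitters' processing notes, CASAVA 1.8.2, DESeq2 and the builds GRCm38 and mm10 were used. Which aligner and annotation were used, and how reads with several matches were treated, is not given in the sources used. The authors deposited raw counts per miRNA in a table per line. They also deposited a normalized signal, in which each library's counts were divided by its size factor, and a log2 table of the same values. Both served as checks only.

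The 1063 miRNAs in both count tables were fitted together in edgeR 4.0.16 (R 4.3.3). TMM scaling, filterByExpr (813 miRNAs tested, holding 99.9971% of counts), 1 mean per line and stage (residual df 10) and the quasi-likelihood test with Benjamini-Hochberg adjustment at 0.05 were used. SE is the log2 change divided by the square root of F. Library totals ran from 7112398 to 18031067 counts, and no value was corrected for length, since whole small RNAs are counted. Within-library ratios, with 0.5 added to each count, were compared by exact permutation of days within lines. The fit was tested on simulated data.

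The labels name the differentiation experiment behind a replicate number, and same-numbered libraries of the lines deviated together at 5 of 5 stages (r 0.13 to 0.554). Within a line, pairs of stages did so in 5 of 10 (PGK) and 4 of 10 (E14) cases above 0.1. Pairs that differed in both line and stage did so in 11 of 20 cases, with a median r of 0.121 and a highest of 0.374. The median at the same stage across lines was 0.393. Named miRNAs were the members, the other arms and seed-sharers of both families, a p53 list, and the 3 miRNAs outside the families, averaging 50 CPM or more in some group, that were most like miR-34c-5p or miR-34a-5p by Pearson r of log2 CPM (2 added to counts). The members and lists were chosen with earlier results of these data known. Alternatives were RLE scaling, library totals, no filter, a higher filter (10 CPM on average), DESeq2 1.42.0, replicate blocks, each line alone and each library left out. Leaving out both day 0 libraries of experiment diff3 was added after seeing the data.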

Additional observations from a re-analysis of the deposited data

How the results depend on the processing

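The rises of the 4 arms of miR-34b and miR-34c against day 0 at the 4 later stages of both lines, and their calls, held under RLE scaling, plain library totals, no filter, DESeq2, both replicate blocks, each line alone and each single library left out. With an average of 10 CPM required, miR-34c-3p and miR-449a-5p were not tested and 3 members were called at every PGK stage and at E14 day 10. The shares of all tested miRNAs called under this and the other settings were not counted. For late PGK cells against day 4, 0 members were called with library totals, with no filter, with that higher filter and without both diff3 day 0 libraries, and 0 to 1 with 1 library left out. For late E14 cells against day 4, 1 member was called by DESeq2, with the replicate block and with the replicate block within line, and the block changed no other call of a member. The difference in the miR-34c-5p to miR-34a-5p ratio was 3.404 in PGK libraries alone and 5.136 in E14 libraries alone, where 45 arrangements allow no smaller p than 0.0222, and 3.962 to 4.579 with 1 library left out. Without both diff3 day 0 libraries the differences were 0.179 for miR-34c-5p to miR-34b-5p, and for 5p to 3p arms -0.049 in miR-34b, 1.248 in miR-34a and 0.621 in miR-34c. With 1 library left out these ran from -0.17 to 0.025, 0.084 to 0.418, -0.046 to 0.753 and 0.277 to 0.604. Uncalled log2 changes turned sign as follows. miR-34a-5p in PGK cells was -0.004 at day 10 with each line alone, and late it was 0.013 with library totals and 0.109 without the diff3 day 0 libraries. With 1 library left out it ran from -0.311 to 0.676 at PGK day 4, -0.372 to 0.66 at PGK day 10, -0.879 to 0.205 late in PGK and -1.039 to 0.112 at E14 day 10, and miR-34a-3p at PGK day 4 from -0.797 to 0.414. miR-34c-5p in late PGK cells against day 4 was 0.508 with library totals, 0.194 with the higher filter, 0.079 with PGK alone and -0.32 to 0.112 with 1 library left out, and in E14 cells 0.145 with library totals and -0.97 to 0.243. The cause of these shifts was not tested. Of 639 log2 changes under other settings 605 kept direction and call, as did 1396 of 1480 with 1 library left out. Depth limits mainly miR-449a-5p and miR-34c-3p, with 2 to 13 counts per day 0 library.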
